A study of Rattus norvegicus with 12 samples.

Results

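The genes described here are 10 genes of sarcomere assembly: the leiomodins Lmod1, Lmod2 and Lmod3, the myosin chaperones Unc45a and Unc45b, the small heat shock protein gene Hspb7, desmin (Des), myoglobin (Mb) and the tropomodulins Tmod1 and Tmod4. They were chosen by name, with their difference between control and acetamiprid cultures already known, so that difference is given below as a description and not as a test. Every gene probe whose name in the array files equalled one of these symbols was taken, which gave 12 of 30367 probes, for 10 of 26214 gene names on the array. Of the 12 probes, 11 passed the filter on low values, as did 23796 probes of the whole table. The probe that did not pass was 1 of the pair for Lmod3.

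RNA came from cerebellar cultures enriched for neurons, made from Sprague-Dawley rats of 1 day of age and kept for 16 days in vitro. The 6 control cultures received only the solvent, 0.001% DMSO. The 6 exposed cultures received 1 µM acetamiprid (ACE), a neonicotinoid insecticide that acts on nicotinic acetylcholine receptors, in the same solvent from day 2 to day 16, and both groups were without serum from day 8. Each control culture had an ACE culture of the same replicate number from the same lot of pooled neonates, here called a culture lot, so that control versus ACE (CvA) was read within 6 pairs.

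A sarcomere is the contractile unit of striated muscle, in which thin filaments of actin and thick filaments of myosin overlap. Leiomodins start new actin filaments and lengthen them at the pointed end, whereas tropomodulins cap that end. The UNC-45 proteins fold the myosin head together with Hsp90, desmin filaments tie neighbouring myofibrils to each other, and myoglobin stores oxygen. In textbook tissue, Lmod1 marks smooth muscle, Lmod2 heart and skeletal muscle, Lmod3 skeletal muscle, Unc45b striated muscle, and Unc45a most cell types. Tmod1 is found in red cells, heart and neurons, and Tmod4 in skeletal muscle. None of the muscle-restricted genes is a known marker of cerebellar neurons.

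The probes are shown first because paralogs of the leiomodin and UNC-45 families can be told apart only through them. Each was 60 bases long, and the first 30 bases of 6 of them are given 5′ to 3′, in lower case throughout.
Lmod1 probe 2: ccagtgatagtttttcacaatgacattgga
Lmod2: tgcctctctggtatctcagttactgagctc
Lmod3 probe 1: tatttgcaaaaggcgtctagacgcatgctg
Lmod3 probe 2: cactcccagagaccagctcttgaatgacat
Unc45a: ctgcagcctgtctggagaaagccgtggaat
Unc45b: tcctgatttgtgactcttccttttggtcct

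The array files placed the probes on build rn4 (RGSCv3.4). Lmod1 probe 2 lay on the plus strand, at chr13:48364507-48364566. The Lmod2 probe was placed on an unplaced part of chromosome 4 (chr4_random:417553-417612). The Lmod3 probes lay on the minus strand, at chr4:131972982-131973041 and chr4:131968030-131968089. The Unc45a probe was at chr1:136144238-136144297 on the minus strand and the Unc45b probe at chr10:71155950-71156009 on the plus strand. No annotation of that build was used here, so exon or untranslated region is not given for a probe.

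The 12 arrays differed in brightness, with a 75th percentile of the processed signal between 1814 and 4381 intensity units, and 68.8% to 88.5% of spots were well above background on an array. Every pair had a slide of its own, on which control always took place 1 and ACE place 3, so place and exposure cannot be told apart. The labelled cell type was checked with markers. All 9 tested neuron marker probes were detected in both groups. Their CvA differences had a median of 0.003, with 4 of 9 below 0, and ran from -0.17 (Pcp2, of Purkinje cells) and -0.12 (Calb1) to 0.15 for Tubb3, 0.15 for Syt1 and 0.11 and 0.34 for Snap25. Single lots moved several of these: without lot 6 the second Snap25 probe was at 0.16 and Pcp2 at -0.05, without lot 1 Pcp2 was at -0.29 and the first Snap25 probe at 0.04, and without lot 4 Syt1 was at 0.06. In addition, the 10 astrocyte probes (Gfap, Aqp4, Slc1a3 and others) were above background on all arrays. Skeletal muscle markers were present as well and varied between lots: the summed signal of 18 probes ran from 2596 to 68000 in control (median 6312) and from 2530 to 22220 in ACE (median 3112). It was highest on control arrays 2 (68000), 1 (39890) and 6 (9056) and on ACE array 1 (22220).

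Lmod2, the leiomodin of heart and skeletal muscle, had the widest swings of the family. Its normalised log2 signal in control ran from 4.35 (lot 3) over a median of 6.14 to 9.81 (lot 2), and in ACE from 3.50 (lot 3) over 4.79 to 7.69 (lot 1). Control arrays 1, 2 and 6 and ACE array 1 were high, and the other 8 arrays lay between 3.50 and 5.20. The groups overlapped, but the ACE array was the lower of its pair in 6 of 6 lots. The mean difference was -1.66 ± 0.75 (SE, n = 6 pairs), which is 3.15-fold lower, and the single pairs ranged from -5.06 (lot 2) to -0.22 (lot 5). Without lot 2 the mean was -0.97, so that pair alone carried much of the size.

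Lmod3, the leiomodin of skeletal muscle, was read by a bright and a dim probe. On the bright probe, named probe 2, the control signal ran from 4.88 (lot 4) over a median of 7.26 to 8.44 (lot 5), and the ACE signal from 4.44 over 5.27 to 6.17. The control array was highest in lots 1, 2 and 5, where the Lmod2 set had lot 6 in place of lot 5. Control array 3 (6.82) came next, above every ACE array, and control array 6 stood at 5.74. The mean difference was -1.76 ± 0.60 (SE, n = 6 pairs), and ACE was lower in 5 of 6 pairs, with lot 4 at 0.22. Without lot 2 the mean was -1.32. The dim probe exceeded the 20th percentile of its array on 4 of 12 arrays and was well above background on 3 control and 2 ACE arrays. Its mean difference was -0.89 ± 1.05 (SE, n = 6 pairs), with lot 2 at -4.02. That mean was -0.26 without lot 2, -0.46 without lot 6, -1.70 without lot 4 and -0.18 with normexp, another correction for the background of each spot, so its size is not settled. The probe pair differed in most lots: 0.21 against -1.40 in lot 3, 3.16 against 0.22 in lot 4, -0.06 against -2.88 in lot 5 and -3.05 against -1.001 in lot 6.

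Lmod1, the leiomodin of smooth muscle, moved little and without a common direction. Probe 1 ran from 3.88 to 5.69 in control (median 5.19) and from 4.08 to 5.60 in ACE (median 5.36). Probe 2 ran from 5.11 to 6.96 in control (median 5.71) and from 5.14 to 6.84 in ACE (median 6.02). The groups overlapped over nearly their whole range on both probes. The mean differences were 0.16 ± 0.20 and 0.21 ± 0.16 (SE, n = 6 pairs), with ACE higher in 4 and in 3 of 6 pairs. Probe 1 was at -0.01 without lot 4, where its pair stood at 1.00. With normexp, or after a shift of each array by its 75th percentile, it was at 0.04. Probe 2 was at 0.12 without lot 2 and at 0.05 with normexp. Smooth muscle and mural cell markers (Acta2, Myh11, Cnn1 and others, 10 probes) summed to 24180 to 31020 in control and 23820 to 30340 in ACE. Their CvA differences were 0.01 for Acta2, -0.05 and -0.06 for Myh11 and 0.28 for Cnn1. Single lots moved some of these: Acta2 was at -0.26 without lot 4 and 0.17 without lot 6. Cnn1 was at 0.18 without lot 1 and 0.38 without lot 6.

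**Figure D1:**
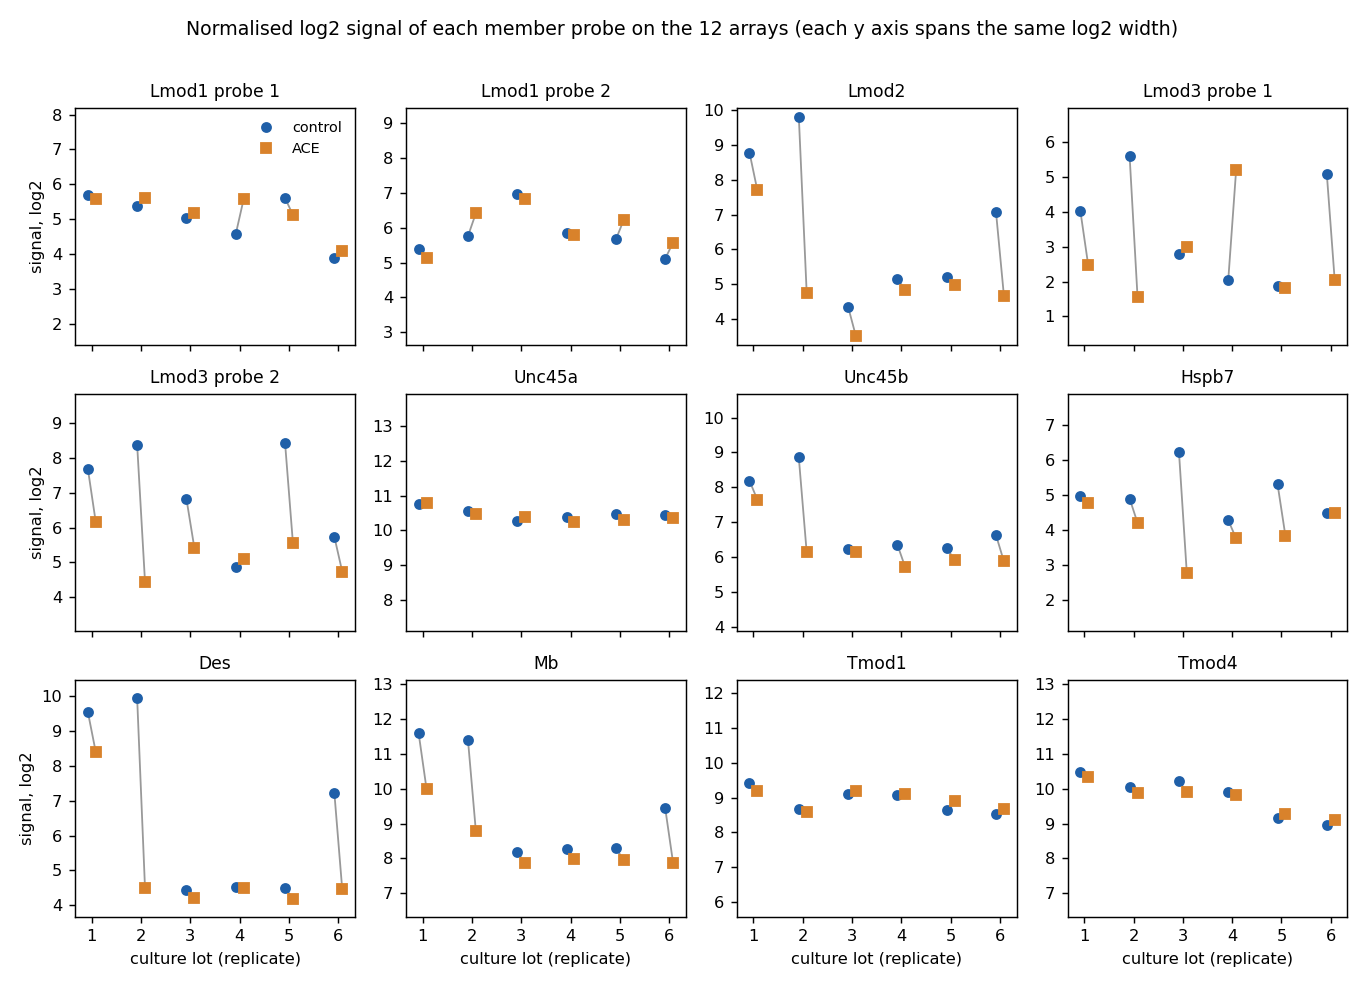
Normalised log2 signal of each of the 12 member probes (y axis, every panel spanning the same log2 width) by culture lot (x axis). Circles are control and squares ACE cultures, and a grey line joins the pair of a lot. Lmod2, Des, Mb and Unc45b were high on control arrays 1 and 2 and on ACE array 1, whereas Unc45a, Tmod1 and Tmod4 lay level between the members of each pair.

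The myosin chaperones differed between the paralogs. Unc45b, the striated muscle form, ran in control from 6.22 over a median of 6.49 to 8.86 (lot 2), and in ACE from 5.70 over 6.02 to 7.64 (lot 1). Control arrays 1 and 2 and ACE array 1 were high, and the other 9 arrays lay between 5.70 and 6.63. ACE was lower in 6 of 6 pairs, by -0.85 ± 0.39 (SE) on the log2 scale, with lot 2 at -2.72 and lot 3 at -0.08. Without lot 2 the mean was -0.48. Unc45a, the general form, stayed within 10.27 to 10.74 in control and 10.23 to 10.80 in ACE. Its mean difference was -0.05 ± 0.05 (SE, n = 6 pairs), with ACE lower in 4 of 6 pairs.

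Hspb7, a small heat shock protein of heart and skeletal muscle, was dim. It ran from 4.28 over a median of 4.94 to 6.25 in control and from 2.75 over 4.01 to 4.77 in ACE, and was well above background on 5 control arrays but only 2 ACE arrays. Here the highest control array was that of lot 3 (6.25), not one of lots 1, 2 and 6. Lot 5 (5.31) came next, above lot 1 (4.98), with quantile normalisation. After a shift of each array by its 75th percentile, lot 1 (5.72) stood above lot 5 (5.41), so that order depends on the scaling. ACE was lower in 6 of 6 pairs by -1.07 ± 0.53 (SE), with lot 3 at -3.50 and lot 6 at -0.01. Without lot 3 the mean was -0.59, and with another background correction (normexp) it was -0.34 over the 6 pairs, a setting that also adds an offset of 50 intensity units, which by itself narrows log2 differences of dim probes.

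Desmin had nearly the profile of Lmod2. In control it ran from 4.43 over a median of 5.87 to 9.95 (lot 2) and in ACE from 4.18 over 4.47 to 8.40 (lot 1). Control arrays 1, 2 and 6 and ACE array 1 were high, and the other 8 lay between 4.18 and 4.52. The mean difference was -1.66 ± 0.87 (SE, n = 6 pairs), with lot 2 at -5.47 and lot 4 at -0.02, and was -0.90 without lot 2. All 6 pairs were lower with quantile normalisation, but 5 of 6 after a shift to the 75th percentile or with normexp, lot 4 being the pair that changed sign.

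Myoglobin was lower in ACE in every pair under each of 4 scalings, as were Lmod2, Unc45b and Hspb7. The control signal of Mb ran from 8.18 over a median of 8.87 to 11.59 (lot 1), and its ACE signal from 7.86 over 7.97 to 9.99 (lot 1). The mean difference was -1.12 ± 0.39 (SE, n = 6 pairs), 2.17-fold lower, with lots 3, 4 and 5 between -0.33 and -0.28 and lot 2 at -2.61. Without lot 2 the mean was -0.82.

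The tropomodulins, which cap the end that leiomodins extend, lay level within pairs. Tmod1 ran from 8.53 to 9.43 in control (median 8.87) and from 8.58 to 9.20 in ACE (median 8.998), with a mean difference of 0.03 ± 0.07 (SE, n = 6 pairs). Tmod4 ran from 8.96 to 10.49 in control (median 9.99) and from 9.10 to 10.33 in ACE (median 9.86), with a mean difference of -0.08 ± 0.07 (SE). Of the control arrays high for Lmod2 and Des, array 1 had the highest Tmod4 value (10.49), array 2 had 10.06 and array 6 the lowest (8.96).

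**Figure D2:**
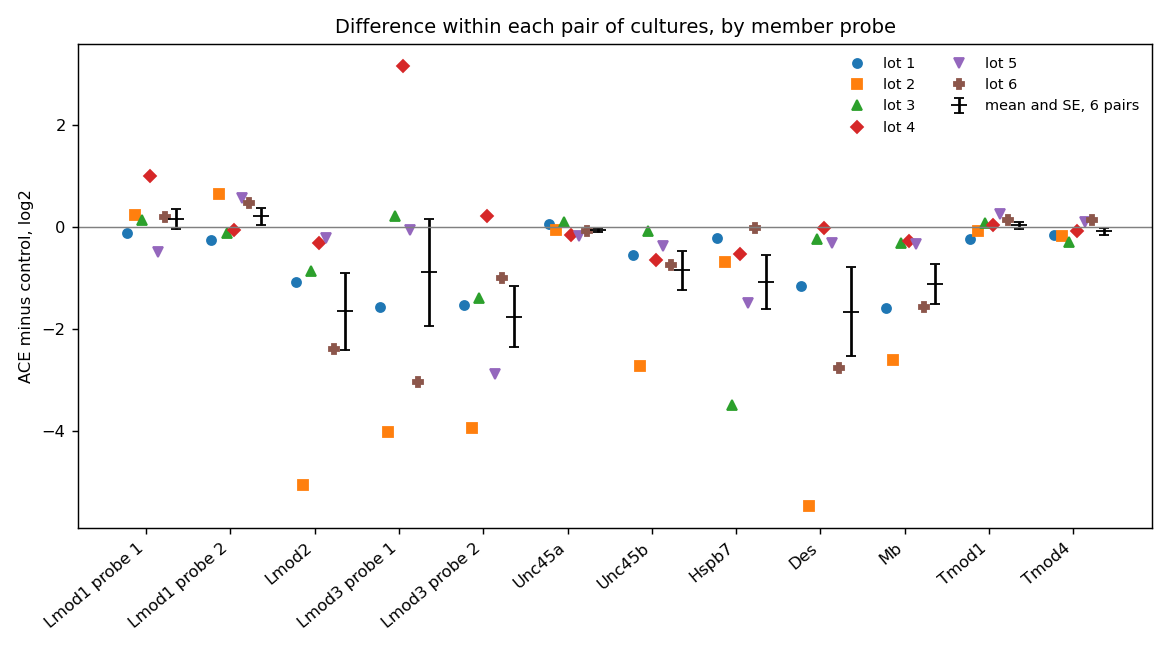
ACE minus control on the log2 scale (y axis) within each of the 6 pairs, for the 12 member probes (x axis). Coloured marks are culture lots, and the black bar gives the mean with its SE over 6 pairs. Lot 2 gave the lowest value for Lmod2 (-5.06), Des (-5.47), Unc45b (-2.72) and Mb (-2.61), and lot 3 for Hspb7 (-3.50).

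Across the whole table, CvA gave 0 probes with an adjusted p under 0.05 (limma with the culture lot as a block, Benjamini-Hochberg over 23796 probes). The lowest adjusted p was 0.141 over all probes and 0.206 over the member probes, and 3956 probes had an unadjusted p under 0.05. Of the 11 member probes tested, 4 had an unadjusted p under 0.05 and a lower signal in ACE, against 9.73% of all probes, and 0 a higher signal, against 6.90%. A lower signal in every pair was found for 5 of 11 member probes (Lmod2, Unc45b, Hspb7, Des and Mb) and 6.89% of all probes, and with at least 1.5-fold in addition for 5 of 11 and 0.185%. A higher signal in every pair was found for 0 of 11 and 4.77%. A mean difference below 0 was found for 8 of 11 and 52.2%, and a difference of at least 1.5-fold downwards for 6 of 11 and 1.06%, with 0 of 11 and 0.664% upwards. Since the members were picked with this contrast known, nothing is read from these shares. The median difference was -0.85 over the 11 member probes and -0.005 over all probes. The members' median was -0.48 without lot 2 and -0.34 with normexp. With normexp background correction the larger differences shrank, to -1.01 for Lmod2, -1.03 for Lmod3 probe 2 and -1.10 for Des.

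When the lots with the highest skeletal muscle signal in control (1, 2 and 6) were left out, a choice made after the values were seen, the differences of lots 3, 4 and 5 remained. The 5 probes lower in every pair are lower there too by that fact. The differences were small for Des (-0.23, -0.02 and -0.32 in lots 3, 4 and 5) and Mb (-0.32, -0.28 and -0.33), and were -0.85, -0.32 and -0.22 for Lmod2 and -0.08, -0.65 and -0.36 for Unc45b. For Hspb7 they were -3.50, -0.52 and -1.49 in lots 3, 4 and 5. Those sizes are uncertain, because Hspb7 was not well above background on ACE arrays 3, 4 and 5 or on control array 4. Lmod3 probe 2 stood at -1.40 and -2.88 in lots 3 and 5, with 0.22 in lot 4. Within the scan batch that held more than 1 pair (lots 4, 5 and 6), 7 of 11 member probes had a mean below 0, as did 53.3% of all probes. Lower in all 3 pairs there were the same 5 probes, which had to be, and Unc45a, against 23.9% of all probes. The part of muscle cells in the member differences was not tested, and in bulk RNA fewer cells of a type and less RNA per cell cannot be told apart.

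The spread between culture lots was wide for the members that differed most. Over the 6 control arrays, which had no exposure, the range was 5.51 log2 units for Des and 5.46 for Lmod2, each at the 99.8th percentile of the ranges of all probes tested. It was 3.56 for Lmod3 probe 2 (98.5th percentile), 3.41 for Mb (98.3rd), 2.64 for Unc45b (95.4th) and 1.97 for Hspb7 (89.5th). A control range of at least 2 log2 units was found for 5 of 11 member probes and 10.2% of all probes, and an ACE range of that size for 4 of 11 and 9.49%. The Lmod1 probes, whose differences were small, came close to Hspb7, with 1.81 and 1.85 (87.1st and 87.7th percentile). Tmod4 (1.53), Tmod1 (0.89) and Unc45a (0.47) stood lower, at the 81.3rd, 55.9th and 23.3rd percentile. The median over all probes was 0.80.

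The sum of squares over the 12 arrays was split into culture lot, exposure and remainder. For the median of 23580 complete probes, lot took 92.0%, exposure 1.4% and remainder 5.3%. Tmod1 (92.1% lot) and Tmod4 (96.9%) were close to that division. Lot took 60.4% for Lmod2, 60.7% for Unc45b, 64.9% for Des and 69.8% for Mb, with 11.5% to 20.2% left as remainder, that is, differences between lots in the size of the pair difference. Lmod3 probe 2 had the highest share for exposure (42.5%), and Hspb7 the highest remainder (49.8%) and the lowest share for lot (9.2%).

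**Figure D3:**
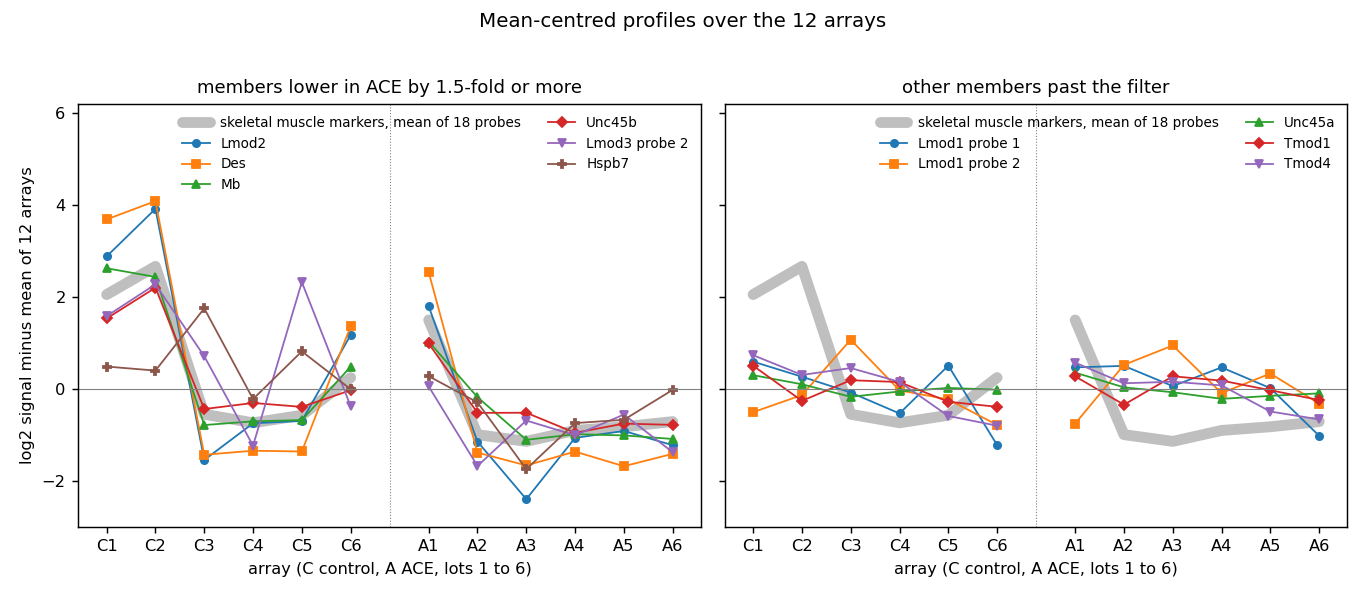
Log2 signal minus its mean over the 12 arrays (y axis) for control arrays C1 to C6 and ACE arrays A1 to A6 (x axis). The grey band is the mean of 18 skeletal muscle marker probes, the left panel holds the 6 probes lower in ACE by at least 1.5-fold and the right panel the other 5 that passed the filter. Lmod2, Des, Mb and Unc45b peaked with the band on C1, C2 and A1, Lmod3 probe 2 on C1, C2 and C5, and Hspb7 on C3.

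The likeness of the members was measured as the root mean square difference between mean-centred log2 profiles over the 12 arrays, where 0 would be an identical profile. Lmod2 and Des differed by 0.53, Mb and Unc45b by 0.46, and Lmod2 and Mb by 0.74. The 2 probes of Lmod1 itself differed by 0.76, a same-gene reference from a single gene. The Lmod3 pair, whose probes differed in most lots, has no distance here because probe 1 did not pass the filter. Between leiomodins the distance was 1.52 for Lmod2 and Lmod3 probe 2. From Lmod2 it was 1.86 to Lmod1 probe 1 and 2.29 to Lmod1 probe 2. From Lmod3 probe 2 it was 1.23 and 1.56 to the same probes. Unc45a and Unc45b differed by 0.84, while Unc45a and Tmod1, both nearly flat, differed by 0.29. These distances describe 12 arrays that share lots and carry no test.

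**Figure D4:**
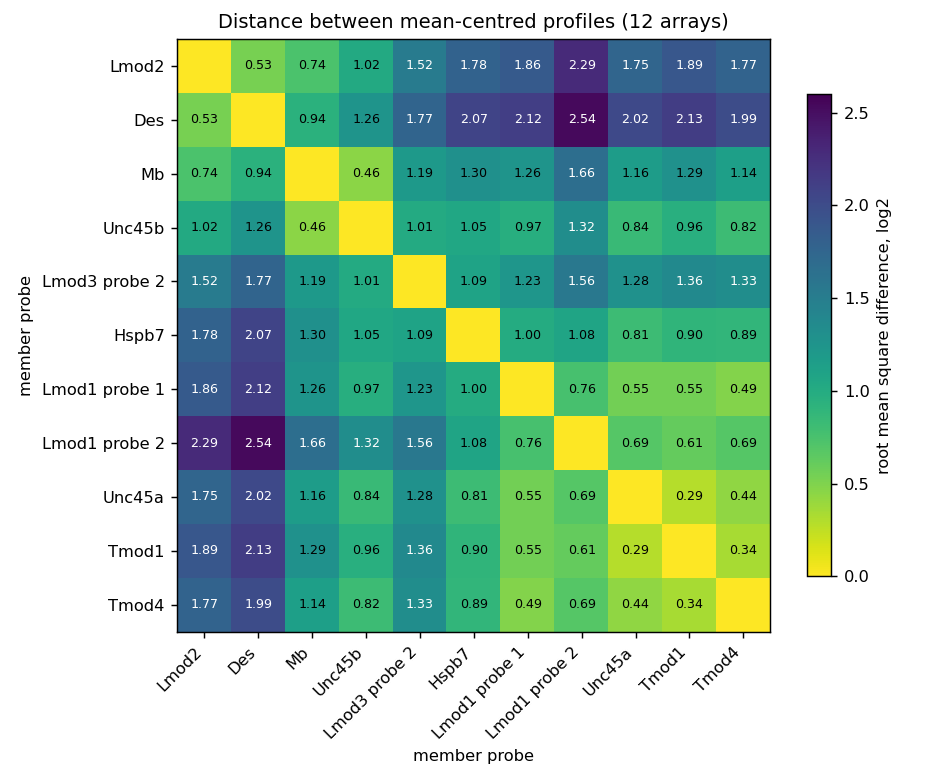
Root mean square difference (log2, colour and printed value) between the mean-centred profiles of the 11 member probes that passed the filter, over the 12 arrays. The block of Lmod2, Des, Mb and Unc45b has values from 0.46 to 1.26, and the block of Unc45a, Tmod1 and Tmod4 from 0.29 to 0.44.

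Among the 20703 probes with a gene symbol and a value on every array, and leaving out the 10 genes described here, of which Des stood at 0.53, the 5 genes nearest to Lmod2 were Myl4 (0.46), Actc1 (0.47), Tnni2 (0.55), Acta1 (0.65) and Chrng (0.68). They encode a myosin light chain of atrium and embryonic muscle, cardiac actin, troponin I of fast muscle, skeletal actin and the fetal subunit of the muscle acetylcholine receptor. Actc1, for example, had control signals of 14.02, 14.24 and 11.55 in lots 1, 2 and 6 and of 9.88 to 10.10 in the others, and ACE array 1 was at 13.05. With the same genes left out, the 5 nearest to Lmod3 probe 2 were Cacng1 (0.74), a calcium channel subunit of skeletal muscle, then LOC685406 (0.92), Gabarapl2 (0.93), Olr305 (0.94) and Gpr26 (0.95). Cacng1 had the high control array 5 (7.22) of Lmod3 together with arrays 1 (7.37) and 2 (8.15). The last 4 distances were large beside the spread of Lmod3 probe 2 itself (1.35), whereas those around Lmod2 were small beside its own (1.88).

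Genes that work beside the members were read from 5 lists of 65 genes, of which 61 were on the array and 56 were tested with 67 probes. After adjustment 0 of the 67 probes passed. Unadjusted, 5 were lower and 4 higher in ACE, together 13.4% against 16.6% of all probes, and their median difference was -0.05.

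The thin filament list, which holds length and pointed end factors, had 0 of 17 probes below an unadjusted p of 0.05 (16.6% of all probes). Neb, the giant ruler of the thin filament, had a difference of -0.63 (adjusted p = 0.615), Nrap -0.02 (adjusted p = 0.837) and Klhl40, which stabilises Lmod3 and nebulin, -0.27 (adjusted p = 0.329), all from limma. The extremes were Klhl41 (-1.40, adjusted p = 0.405 in limma), lower in 4 of 6 pairs, and Tpm3 (0.07, adjusted p = 0.355), a tropomyosin. The other tropomodulins of the list, Tmod2 of neurons and the general Tmod3, had differences of -0.03 and -0.05. Lot 2 carried much of the larger values: without it Neb stood at -0.08, Klhl40 at -0.18 and Klhl41 at -0.67.

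The list of myosin folding and small heat shock proteins had 20 tested probes. At an unadjusted p under 0.05, 1 was lower (9.73% of all probes) and 2 were higher (6.90%). The lower was Hspb2 (-0.26, lower in 6 of 6 pairs, limma adjusted p = 0.143). The higher were Bag3, a co-chaperone (0.11, adjusted p = 0.193), and 1 of the 3 probes of Hsp90ab1 (0.10, adjusted p = 0.224), whose other probes stood at -0.07 and -0.06. Smyd1, a methyltransferase of striated muscle that works with the myosin chaperones, stood at -0.49 (limma adjusted p = 0.310), and the 3 probes of Hsp90aa1 lay between -0.04 and -0.03. Hspb3 had the lowest difference (-1.24, limma adjusted p = 0.426) with 3 pairs lower and 3 higher, and a control range of 5.75 log2 units. Without lot 2 it stood at -0.79, without lot 6 at -0.75, and Smyd1 without lot 2 at -0.29.

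The list of Z-disc, M-band and intermediate filament genes had 20 tested probes. At an unadjusted p under 0.05, 4 were lower (9.73% of all probes) and 1 was higher (6.90%). The lower ones were Myom1 of the M-band (-0.34, limma adjusted p = 0.261), Tcap, which caps titin (-0.58, adjusted p = 0.262), the filamin Flnc (-0.19, adjusted p = 0.270) and Synpo2l (-0.26, adjusted p = 0.147). The higher one was a probe of Synm, an intermediate filament partner of desmin (0.09, higher in 6 of 6 pairs, adjusted p = 0.248). Ttn, the titin gene, had 1 tested probe of 3, at -0.06 (limma adjusted p = 0.934), or 0.16 without lot 2 and -0.24 without lot 5. A further Ttn probe, which failed the filter, was well above background on 3 control arrays and 1 ACE array. It read 5.79 and 7.12 on control arrays 1 and 2 and 5.95 on ACE array 1. The last Ttn probe, which also failed, was well above background on 1 control and 1 ACE array. On control arrays 1 and 2 it read 4.84 and 2.67, and on ACE array 1 it read 4.40. Actn2, the Z-disc actinin, stood at -1.13 (adjusted p = 0.371) and Ldb3, the lowest, at -1.29 (adjusted p = 0.304), each with 4 of 6 pairs lower, and Trim63 was the highest at 0.21 (adjusted p = 0.737). Without lot 2, Actn2 stood at -0.65 and Myom1 at -0.21, and without lot 5 Trim63 stood at -0.02. Vim and Nes, the intermediate filament genes of non-muscle and progenitor cells, stood at -0.01 and at -0.08 and -0.16.

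Of the globins that are relatives of myoglobin in nervous tissue, Cygb stood 0.18 higher in ACE, in 6 of 6 pairs (limma adjusted p = 0.157), and Ngb at -0.02 (adjusted p = 0.747). Regulators of muscle genes lay close to 0, with 0 of 8 probes below an unadjusted p of 0.05 (16.6% of all probes). Srf was at 0.06, the probes of its coactivator Mkl1 at -0.01 and -0.09, and Mkl2 at 0.03, and the extremes were Mef2c (-0.09) and Myocd (0.09).

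Skeletal muscle markers, taken as a sum, were high in the same lots as Lmod2, but not every marker was high on control array 6. Acta1 (8.13), Mylpf (11.74) and Myh3 (10.70 and 9.83) were high there. Tnnc2 had its lowest control value there (9.39), and Tnnt3 (9.38), Chrna1 (8.53) and Myog (6.35) lay within the range of control arrays 3 to 5. All 13 tested probes of that list had a mean below 0 (52.2% of all probes), 8 by at least 1.5-fold (1.06%), 4 with an unadjusted p under 0.05 (9.73%) and 0 after adjustment. Their median was -0.81. Without lot 2 it was -0.39, with 12 of 13 below 0 and 4 by at least 1.5-fold, and the remaining probe, Ckm, at 0.26. Acta1 stood at -1.45, Mylpf at -2.18 and the embryonic myosin gene Myh3 at -2.80 and -3.08. Lot 2 alone gave -4.95 for Acta1, -7.42 for Mylpf and -8.07 and -8.37 for Myh3, and without it the means were -0.75, -1.13, and -1.74 and -2.02. Cardiac markers summed to 743.7 to 5174 in control and 775.5 to 2029 in ACE. All 7 tested probes had a mean below 0 (52.2% of all probes), 2 of them by at least 1.5-fold (1.06%). Those were the probes of Tnnt2, a troponin T also made in embryonic skeletal muscle (-0.79 and -0.77, or -0.40 and -0.36 without lot 2), which were high on control arrays 1, 2 and 6 and ACE array 1. Nkx2-5 stood at -0.24, lower in 6 of 6 pairs (limma adjusted p = 0.186), Myh6 at -0.31 (-0.15 without lot 1), Nppa at -0.07 and Tnni3 at -0.03. Fibroblast markers (Col1a1, Col1a2 and Col3a1 first) summed to 65580 to 114900 in control and 61760 to 119200 in ACE. Erythroid markers, relevant to Tmod1, summed to 1233 to 6210 in control and 1134 to 5721 in ACE, and Hba1 stood at -0.02 and 0.12, and Hbb was well above background on 0 arrays.

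**Figure D5:**
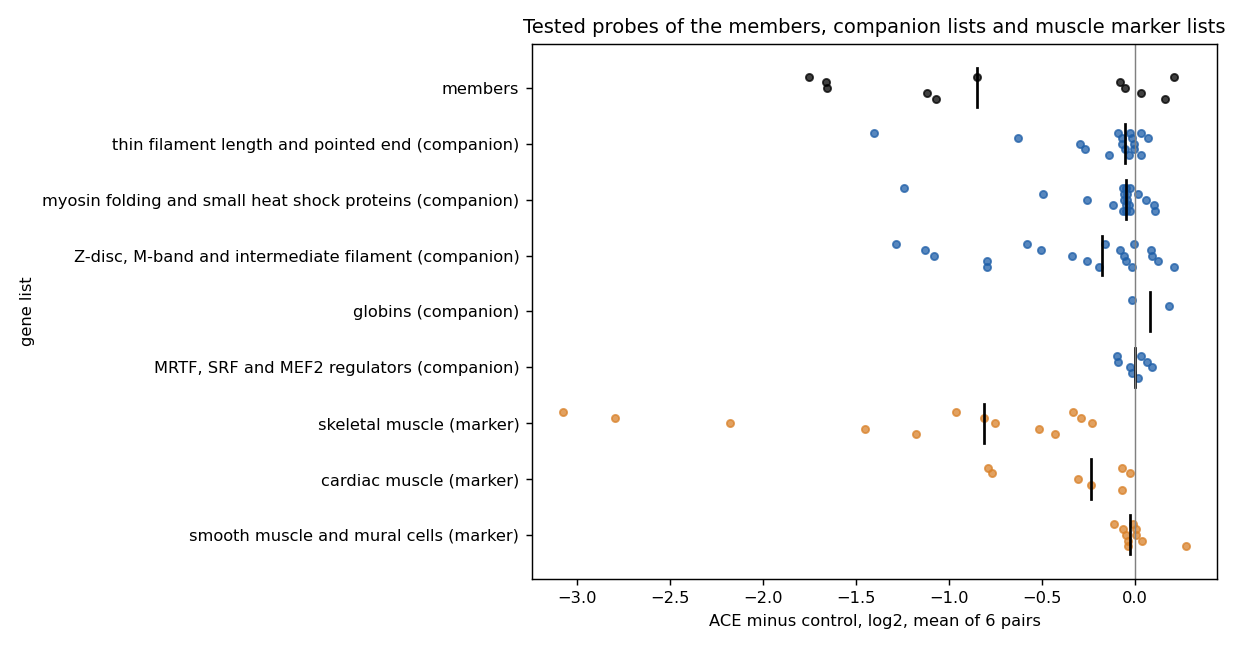
ACE minus control on the log2 scale, mean of the pairs (x axis), for each tested probe of the members, of the 5 companion lists and of 3 muscle marker lists (y axis). Points are probes and vertical bars are medians. The median was -0.85 for the members (-0.48 without lot 2), -0.81 for skeletal muscle markers (-0.39 without lot 2), and between -0.18 and 0.08 for the companion lists.

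The upstream sequences of members that moved together are shown because the lot pattern was shared by Lmod2, Des, Mb and Unc45b, with Hspb7 added for contrast. Windows of 250 bases before the transcript start came from RefSeq on build GRCr8, for 9 of the 10 genes. Lmod3 had 2 starts, and Lmod1 had no entry in the set of promoters used here. Capitals mark exact matches, on both strands, to an E-box (CANNTG), an M-CAT element (CATTCC), the CArG box or the MEF2 site.
Lmod2: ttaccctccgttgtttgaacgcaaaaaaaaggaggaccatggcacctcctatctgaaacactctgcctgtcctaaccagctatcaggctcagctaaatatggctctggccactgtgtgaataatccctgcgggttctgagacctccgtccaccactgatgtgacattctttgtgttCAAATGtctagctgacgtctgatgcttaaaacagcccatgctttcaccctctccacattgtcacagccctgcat
Des: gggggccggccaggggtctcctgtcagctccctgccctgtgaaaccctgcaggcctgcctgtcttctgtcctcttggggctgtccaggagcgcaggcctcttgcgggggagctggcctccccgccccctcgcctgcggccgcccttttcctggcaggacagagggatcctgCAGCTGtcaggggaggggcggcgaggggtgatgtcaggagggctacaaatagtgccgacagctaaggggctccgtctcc
Mb: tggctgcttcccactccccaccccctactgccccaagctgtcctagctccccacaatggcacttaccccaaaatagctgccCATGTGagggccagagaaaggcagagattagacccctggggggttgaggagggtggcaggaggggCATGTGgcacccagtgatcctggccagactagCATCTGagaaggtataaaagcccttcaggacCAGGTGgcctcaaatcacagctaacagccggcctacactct
Unc45b: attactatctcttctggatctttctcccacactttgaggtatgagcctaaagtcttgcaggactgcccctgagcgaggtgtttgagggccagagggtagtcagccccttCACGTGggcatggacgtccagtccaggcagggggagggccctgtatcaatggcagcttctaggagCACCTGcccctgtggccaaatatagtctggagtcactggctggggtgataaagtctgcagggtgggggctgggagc
Hspb7: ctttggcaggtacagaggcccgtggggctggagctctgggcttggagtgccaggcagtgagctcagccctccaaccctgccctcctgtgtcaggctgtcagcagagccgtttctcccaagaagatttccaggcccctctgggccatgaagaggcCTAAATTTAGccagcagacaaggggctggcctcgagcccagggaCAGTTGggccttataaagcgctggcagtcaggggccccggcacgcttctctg

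The windows lay at chr4:54032724-54032973 (plus strand) for Lmod2, chr9:84299376-84299625 (plus strand) for Des, chr7:110647743-110647992 (minus strand) for Mb, chr10:68342761-68343010 (plus strand) for Unc45b and chr5:159010509-159010758 (plus strand) for Hspb7. An E-box, the letters bound by myogenic factors among others, was in the windows of 8 of 9 genes and in 65.5% of all 33469 promoters of the table. Mb held 4, Unc45b 2, and Lmod2, Des and Hspb7 each 1, and Unc45a held 0. M-CAT and the CArG box matched in 0 of 9 genes, against 12.1% and 1.5% of all promoters, and the MEF2 site matched in Hspb7 alone, 96 bases before the start, against 2.96%. No capital run here overlaps another motif. These matches describe letters in a window and are not binding sites.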

How the data were processed

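Cultures of neonatal rat cerebellum were profiled on 1-colour Agilent arrays, 6 control and 6 ACE. Per the file headers, the authors deposited spot intensity values with background subtracted by Feature Extraction (version 11.0.1.1 in the submitters' processing notes). The authors also deposited a log2 table, quantile normalised and centred per probe, which correlated at 0.997 to 0.999 with the centred values used here and served as an alternative.

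Outlier spots were removed (447 probe values missing), log2 processed signals were quantile normalised, and spots of a probe were averaged. A probe was tested if above the 20th percentile on at least 7 of 12 arrays and in at least 4 complete pairs. limma 3.58.1 in R 4.3.3 was fitted over all probes with the replicate number as a block and Benjamini-Hochberg adjustment at 0.05, and was tested on simulated data. A replicate number marks 1 culture lot per the study's methods. Same-numbered arrays deviated together (correlations 0.449 to 0.912, against -0.438 to 0.390 otherwise). Differences are on the log2 scale of normalised intensity.

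Members, gene lists and tests were chosen with earlier results of these data known. Named genes were all members, the first 3 tested genes and both extremes of each companion list, the first 3 of each marker list and the 5 nearest profiles, all by a set rule. Other names, such as companion probes with an unadjusted p under 0.05, were chosen after their values were seen. Alternatives covered scaling, background, filter, block, test and each pair left out. The number of arrays limits the precision. Newer gene names on 2 arrays changed 0 member probes. A protein comparison was not made. The sequence and position of Lmod1 probe 1 are not reported here.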

Additional observations from a re-analysis of the deposited data

Results flagged for a closer look

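Each of the 12 member probes was screened for an array that stood far from the other 5 of its group, and 4 of 24 groups had one. Chance flags about 5% of groups, and over all 29938 probes with a value on every array 10.7% of groups had such an array. The 24 groups are not independent, since 3 of the 4 are the same array in probes with like profiles, so nothing is read from their number. ACE array 1 stood apart for Des (8.40, the next highest array at 4.50), for Unc45b (7.64, the next at 6.14) and for Lmod2 (7.69, the next at 4.98). The same array had the highest summed skeletal muscle signal of the ACE group (22220), and its part in these values was not tested. Lmod1 probe 1 was low on ACE array 6, at 4.08 against 5.12 for the next lowest.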

How the results depend on the processing

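Of 132 member differences recomputed with a setting that could move them, 5 changed sign. Those were Lmod1 probe 1 without replicate 4 (-0.01), Tmod1 without replicate 5 (-0.01), Tmod4 within the scan batch of 3 pairs (0.05), and Lmod3 probe 1 within that batch (0.02) and without the 3 lots highest in skeletal muscle markers (1.104). Probes past the adjusted threshold stayed at 0 under the alternatives run with limma, except the replicate block as a random effect, with 5 (Ece1, Tapbpl, Kpna6, Bmp8b and Ccdc85c, 0 of them members). Unadjusted, 3956 probes passed with the replicate block. Without the block 81 did, 37 of them lower, with 54.3% higher in place of 41.5%, and companion probes gave 1 lower and 0 higher. The 75th percentile shift moved the median of all probes by -0.034, gave 19.1% higher in place of 41.5%, and 9 companion probes lower and 2 higher, in place of 5 and 4. Companion probes numbered 13 lower with normexp, 13 with the random block, and 3 lower and 2 higher by the exact paired rank test, by which 2755 of all probes passed unadjusted and 0 adjusted, a void count because 6 pairs give no exact p below 0.03125 (lowest adjusted p 0.270). Without replicate 1 to 6 in turn, companion probes lower in ACE ranged from 3 to 9, the low end being reached without replicate 2 and without replicate 4 and the high end without replicate 3. Without the 3 lots highest in muscle markers, chosen after seeing the data, 1602 probes passed unadjusted, 1009 lower, and companion probes gave 2 lower and 1 higher. Requiring a signal well above background on all 12 arrays left 6 member probes (Lmod1 probe 2, Unc45a, Unc45b, Mb, Tmod1 and Tmod4), of which 4 were lower, beside 52.0% of all 20184 probes so filtered, and 2 were lower in every pair, beside 7.30%. Dim probes (Hspb7, Lmod3 probe 1) are limited by signal over background, and 6 pairs limit all differences.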
